A study of Mus musculus with 10 samples.

Results

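The clustered replication-dependent histone genes were compared between long bones of aged and young mice. The members were the protein-coding genes of the count table whose symbols follow the naming of the histone clusters (Hist1h to Hist4h, or the newer H1f1 to H1f6, H2ac, H2bc, H3c and H4c symbols), which gave 58 of the 38962 genes, while 2 further name matches were annotated as pseudogenes and left out. They comprised 6 genes of the linker histone H1, 14 of H2A, 16 of H2B, 10 of H3 and 12 of H4, and 53 lie on chromosome 13 and 5 on chromosome 3. The femurs came from 5 aged male C57BL/6J mice (22 months) and 5 young male C57BL/6J mice (2 months), with no genetic change or treatment in either group, and 1 RNA-seq library was made per mouse. Per the study's methods, femurs were flushed of marrow and pulverized, so each library holds RNA of every cell type left in the bone. The aged mice came from the National Institute on Aging colony and the young mice from the Jackson Laboratory, so supplier and age cannot be told apart.

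Histones are the proteins around which DNA is wound. H2A, H2B, H3 and H4 form the core of the nucleosome, and H1 binds the DNA that enters and leaves it. The clustered genes are transcribed mainly in S phase, when new DNA has to be packed, and their mRNAs are the only known mRNAs of animals that mostly lack a poly-A tail. Instead they end in a short stem-loop that is bound by SLBP, and the mRNAs are degraded when DNA synthesis stops. Their mRNAs are therefore found mainly in cells that are replicating their DNA, which in bone include blood cell precursors of the marrow and growing cartilage and bone cells.

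The stem-loop was searched for in the annotated transcripts (GENCODE vM21, GRCm38), as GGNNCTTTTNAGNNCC on the sense strand, and was found in 37 of the 58 members. The following examples cover each form that more than 1 gene carried, and are shown because this element takes the place of the poly-A tail, which bears on how the libraries captured these mRNAs. Capitals mark the stem-loop, to which the coordinates refer, with 5 flanking bases on each side.
H3c15, chr3:96238485-96238500, minus strand: acaaaGGCTCTTTTCAGAGCCaccac
H2bc14, chr13:21722506-21722521, plus strand: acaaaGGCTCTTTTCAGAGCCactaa
H1f2, chr13:23739512-23739527, plus strand: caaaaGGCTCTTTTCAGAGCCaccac
H2bc3, chr13:23747203-23747218, plus strand: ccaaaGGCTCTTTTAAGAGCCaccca
H4c6, chr13:23551291-23551306, minus strand: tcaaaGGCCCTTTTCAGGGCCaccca
H4c9, chr13:22040966-22040981, minus strand: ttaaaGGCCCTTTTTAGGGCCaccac
H4c2, chr13:23757366-23757381, plus strand: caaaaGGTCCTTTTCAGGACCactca
The form of H3c15, H2bc14 and H1f2 was carried by 20 members, 3 of H1, 7 of H2A, 6 of H2B and 4 of H3. The form of H2bc3, with A in the loop, was carried by 6 members of H1, H2B and H3. A further form was found in H2ac20 alone. The H4 genes had forms of their own, that of H4c6 in 6 genes and those of H4c9 and H4c2 in 2 genes each. In 17 members the annotated transcript ran 100 or more bases past the stem-loop, as far as 4884 bases in H1f3. The other 21 members had no match in the annotated transcript. Some of these transcripts are short, such as H4c12 with 312 bases, H2bc13 with 381 and H2ac13 with 393. Others are longer, such as H2bc21 with 2620 bases and H2bc6 with 2099. The search used 1 transcript per gene and only the pattern above. A stem-loop past the annotated end, in another transcript or with other letters would be missed, so these genes cannot be said to lack it. The study's methods name both an RNase H rRNA depletion kit and a poly-A selection for these libraries, and the labels give total RNA with an enriched mRNA subtype, so how mRNAs without a tail were captured is not settled by these sources. The values below are levels of the mRNA that was captured.

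Promoter windows from RefSeq (GRCm38, 250 bases before to 50 after the start) were matched to 52 members. The window of H2bc8 is shown because it is a divergent promoter shared with H2ac8, that of H4c9 because this gene had the second smallest p of the members, and that of H1f2 because this gene was the most abundant H1 member. Capitals mark matches to TATAAA (the letters of a TATA box), CCAAT, ATTTGCAT (the octamer of H2B promoters) and AAACACA (the H1 box). Matches were taken on either strand and at any position of the window, so distance to the start was not considered.
H2bc8, chr13:23571150-23571449, plus strand: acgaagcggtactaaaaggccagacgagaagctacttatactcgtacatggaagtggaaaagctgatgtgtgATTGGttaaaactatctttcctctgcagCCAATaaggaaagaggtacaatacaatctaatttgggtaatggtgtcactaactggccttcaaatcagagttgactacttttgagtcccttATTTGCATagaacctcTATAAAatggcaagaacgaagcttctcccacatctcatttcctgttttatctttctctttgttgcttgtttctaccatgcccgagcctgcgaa
H4c9, chr13:22041313-22041612, minus strand: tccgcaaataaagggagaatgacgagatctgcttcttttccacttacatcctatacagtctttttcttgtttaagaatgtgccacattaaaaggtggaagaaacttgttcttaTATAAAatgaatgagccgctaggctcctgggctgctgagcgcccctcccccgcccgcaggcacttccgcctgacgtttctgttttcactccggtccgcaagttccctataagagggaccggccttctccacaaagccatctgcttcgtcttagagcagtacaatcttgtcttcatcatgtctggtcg
H1f2, chr13:23738557-23738856, plus strand: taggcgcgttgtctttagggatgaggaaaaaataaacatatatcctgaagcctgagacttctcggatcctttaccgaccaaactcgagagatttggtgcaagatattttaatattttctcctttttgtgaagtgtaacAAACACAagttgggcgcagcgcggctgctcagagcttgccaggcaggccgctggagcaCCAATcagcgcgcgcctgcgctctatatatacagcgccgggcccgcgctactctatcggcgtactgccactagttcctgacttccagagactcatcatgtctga
A TATAAA match lay in 61.5% of the 52 windows, against 13.6% of all 32851 promoter windows of the table. CCAAT was found in 84.6% of the members' windows and in 37.4% of all windows, and among the members it was carried by every matched H1, H2A, H2B and H3 window but by 3 of 11 H4 windows. ATTTGCAT was found in 10 members' windows, all of H2A or H2B, 19.2% of the members against 1.74% of all windows. AAACACA was found in 5 of 6 H1 windows, against 7.18% of all windows. Divergent H2A and H2B genes share most of their window, so their matches are not independent, and a match is a description of the letters and not a tested site.

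The libraries held 31788232 to 45075335 counts in aged mice and 33447009 to 40395050 in young mice (two-sided exact permutation test, p = 0.206). The members took 0.235%, 0.608%, 0.184%, 0.199% and 0.298% of the counts in aged 1 to 5, against 0.364%, 0.511%, 0.289%, 0.542% and 0.390% in young 1 to 5. Aged 2 was thus the highest of all 10 libraries, while aged 1, 3 and 4 lay below every young library. Levels are given from here on as CPM, read counts divided by the library size, which was scaled by the trimmed mean of M values (TMM). Of the 55 members that passed the filter on low counts, 32 had their highest level of the 10 libraries in aged 2 and 14 in young 4, while 25 had their lowest in aged 4 and 19 in aged 3. Young 5 also stood apart, with low H2A levels that are described further on. The calls and the median fold change of the members are given with and without aged 2.

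**Figure D1:**
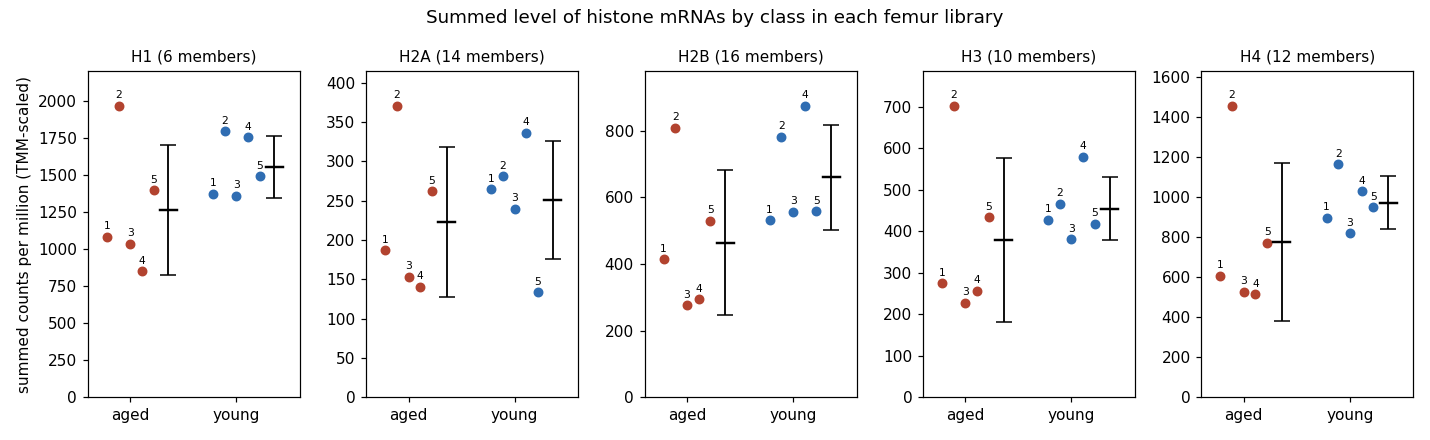
Summed CPM of the members of each histone class in each femur library, aged on the left and young on the right of each panel. Points are libraries with their replicate number, the bars beside them are the mean and SD of 5 libraries. Aged 2 is the highest library for H1, H2A, H3 and H4, and young 5 is the lowest for H2A with 133 CPM.

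Per kilobase of gene, the classes differed in level. The length used was that of the annotated gene, which in some members runs past the stem-loop (4884 of 7425 bases in H1f3). Where the mRNA ends at the stem-loop, this understates the level per kilobase, and it was not corrected. The H1 members had the highest median, 197 CPM per kb over the 10 libraries, followed by 82.6 for H4, 57.6 for H2B, 47.5 for H3 and 20.6 for H2A. The most abundant single member was H4c6, with 420 ± 209 CPM per kb in aged and 518 ± 77.1 in young mice (SD, n = 5 each). H1f2 and H1f1, which encode somatic linker histones, came next with means of 280 and 255 CPM per kb over all libraries, a gap smaller than the SD of either gene in either group. The leading genes of the other classes were H2bc15 with 202, H3c3 with 151 and H2ac15 with 139 CPM per kb. H1 members together took 41.7% ± 3.38 of the member counts in aged and 40.0% ± 1.37 in young mice (SD, n = 5 each), and H4 members 24.5% ± 1.82 and 25.0% ± 1.64. Read placement between members is uncertain, since in 24 of the 58 members fewer than 50% of all 100-base windows of the transcript are unique to the gene, down to 0% in Hist1h2bq and Hist1h2br. The H1 transcripts are the most distinct (75.3% to 100% unique windows) and the H2A transcripts among the least (median 30.1%). H2bc1, a testis histone, and Hist1h2ap and Hist1h2br, with 0 to 16 reads per library, did not pass the filter and were not tested. H1f6, the testis linker histone, averaged 0.519 CPM per kb, while of 7 male germ cell markers 6 did not pass the filter and Ddx4 averaged 1.68 CPM in aged and 2.55 CPM in young mice (edgeR adjusted p = 0.194).

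Between aged and young bone, a single histone gene passed the test, and the fold changes of nearly all others were below 0 without passing it. Of 55 members in the edgeR quasi-likelihood fit (Benjamini-Hochberg adjusted over all genes), 1 was lower (H3c15), 0 were higher and 54 did not pass an adjusted p of 0.05. That is 1.82% of the members lower, against 3.61% of all 22088 tested genes, and 0 members higher, against 3.68% of all tested genes (7.29% in either direction). At an unadjusted p under 0.05, 6 members (10.9%) were lower and 0 higher, against 12.4% and 13.3% of all tested genes. DESeq2 and limma-voom likewise called 0 higher and the same 1 lower. In no member were the aged and the young libraries free of overlap, while 4.12% of tested genes had every aged library below every young one. The fold changes lay mostly on 1 side, with 54 of 55 below 0 and a median log2 fold change of -0.29, against 49.1% below 0 and a median of 0.01 over all tested genes. The members share libraries, so these 55 values are not independent measurements. The class medians were -0.44 for H2B, -0.34 for H4, -0.26 for H3, -0.25 for H1 and -0.16 for H2A. Precision was lower than for most genes, with a median standard error of 0.298 on the log2 scale against 0.178 over all tested genes. In bulk bone, fewer replicating cells and less histone mRNA per cell cannot be told apart.

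**Figure D2:**
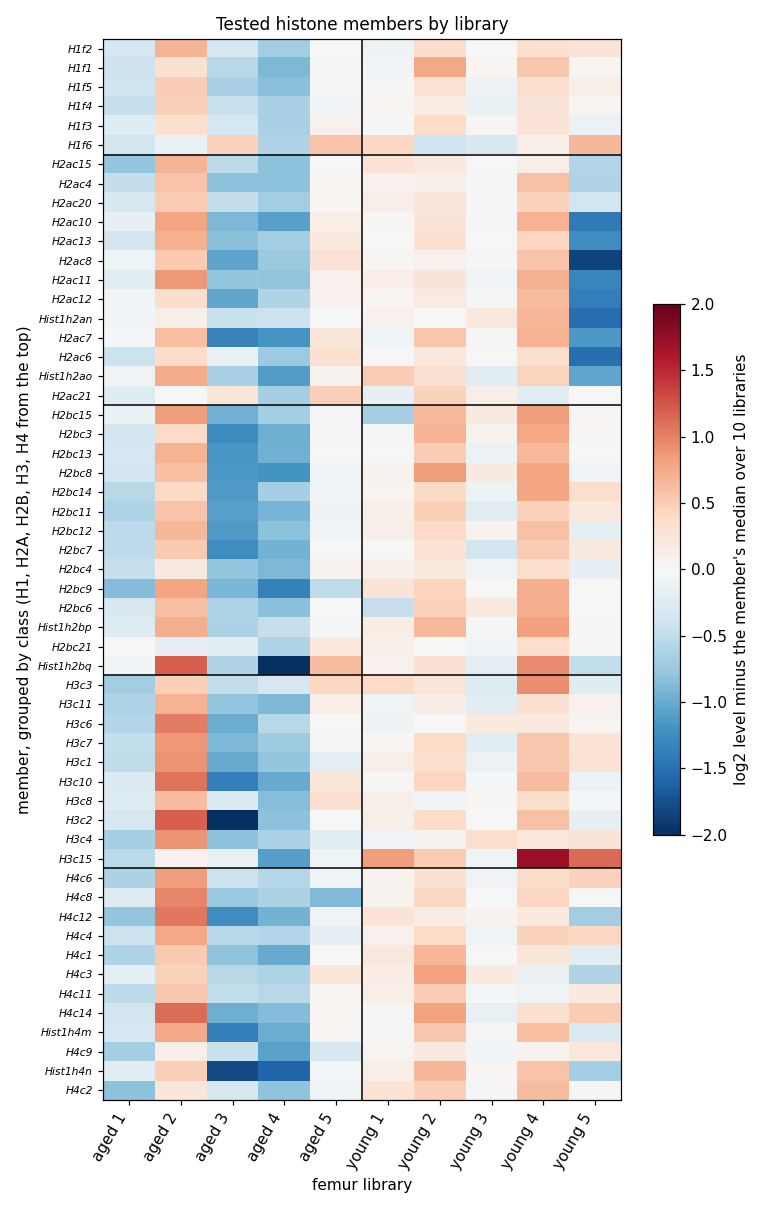
Level of each tested member in each library as the log2 difference from that member's median over the 10 libraries, with aged libraries on the left, young libraries on the right and members grouped by class. Aged 2 is above the median for most members, aged 3 and aged 4 are below it, and young 5 is below it for 12 of 13 H2A members.

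H3c15 encodes a canonical H3 protein in the small cluster on chromosome 3 (chr3:96238108-96239127, GRCm38). It had 0.811, 1.25, 1.06, 0.539 and 1.11 CPM in aged 1 to 5, against 2.13, 1.69, 1.11, 3.90 and 2.62 CPM in young 1 to 5. The groups overlapped only because aged 2 and, by less than the rounding, aged 5 lay above young 3. Its log2 fold change was -1.27 (standard error 0.317, edgeR adjusted p = 0.0291), with means of 0.956 ± 0.283 CPM in aged and 2.29 ± 1.06 CPM in young mice (SD, n = 5 each). It is a weakly counted gene, with 23 to 63 reads in aged and 32 to 187 reads in young libraries, and 38.4% of its transcript windows are unique to it. Its call ended when any of aged 1, aged 3, young 1, young 4 or young 5 was left out (edgeR adjusted p from 0.0506 to 0.0844), with log2 fold changes of -0.99 without young 4 and -1.22 to -1.30 without the others. The call also ended with muscle or red cell precursor markers as a covariate (-1.07 and -0.76, edgeR adjusted p = 0.125 and 0.302).

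H4c9 encodes a copy of H4 on chromosome 13 (chr13:22040636-22041362) and had the next smallest p. It had 17.0, 29.4, 19.96, 12.96 and 21.8 CPM in aged 1 to 5, against 28.3, 31.1, 26.3, 28.8 and 31.5 CPM in young 1 to 5. Aged 2 alone lay within the young range, and the other aged libraries lay below it. The log2 fold change was -0.53 (standard error 0.171, edgeR adjusted p = 0.0762), and -0.70 without aged 2 (adjusted p = 0.0141). The other H4 gene with an unadjusted p under 0.05, H4c2, averaged 0.771 ± 0.249 CPM in aged and 1.17 ± 0.235 CPM in young mice (SD, n = 5 each; edgeR adjusted p = 0.150), and it lies wholly inside a long noncoding RNA gene, so without strand its reads cannot be assigned. The abundant H4c6, H4c8 and H4c12 had log2 fold changes of -0.30, -0.32 and -0.17 with all libraries and -0.65, -0.80 and -0.73 without aged 2, where H4c6 and H4c8 passed the test and H4c12 did not.

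H2B was the class with the most members near the top of the ranking, with 6 of the 10 smallest p-values. H2bc14 had 27.0, 52.0, 18.0, 25.0 and 38.1 CPM in aged 1 to 5, against 41.2, 52.3, 37.1, 68.4 and 50.4 CPM in young 1 to 5. Aged 2 and aged 5 reached the young range and the other aged libraries lay below it. The log2 fold change was -0.64 (standard error 0.264, edgeR adjusted p = 0.157). H2bc3, the member with the second highest H2B level per kilobase, had 59.1, 99.0, 31.7, 38.8 and 75.0 CPM in aged 1 to 5, against 74.2, 122, 79.7, 130 and 77.3 CPM in young 1 to 5. Here too aged 1, 3 and 4 lay below every young library, and the log2 fold change was -0.67 (standard error 0.297, edgeR adjusted p = 0.183). H2bc8, H2bc9, H2bc11 and H2bc4 had log2 fold changes of -0.69, -0.67, -0.52 and -0.42 with edgeR adjusted p-values of 0.212 to 0.280. H2bc15, the most abundant H2B gene per kilobase, and H2bc13 had log2 fold changes of -0.35 and -0.43 (edgeR adjusted p = 0.559 and 0.418).

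Among the linker histones, H1f1 had the largest difference. It had 136, 226, 124, 97.7 and 177 CPM in aged 1 to 5, against 175, 311, 187, 266 and 187 CPM in young 1 to 5. Aged 2 and aged 5 overlapped with the young libraries. The log2 fold change was -0.56 (standard error 0.229, edgeR adjusted p = 0.146), which is 0.677 of the young level. Its transcript shares no 100-base window with any other gene. H1f2 and H1f5, the other H1 genes among the most abundant per kilobase, averaged 402 ± 162 and 138 ± 53.9 CPM in aged and 473 ± 65.7 and 175 ± 21.6 CPM in young mice (SD, n = 5 each), with log2 fold changes of -0.23 and -0.34 (edgeR adjusted p = 0.530 and 0.344).

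**Figure D3:**
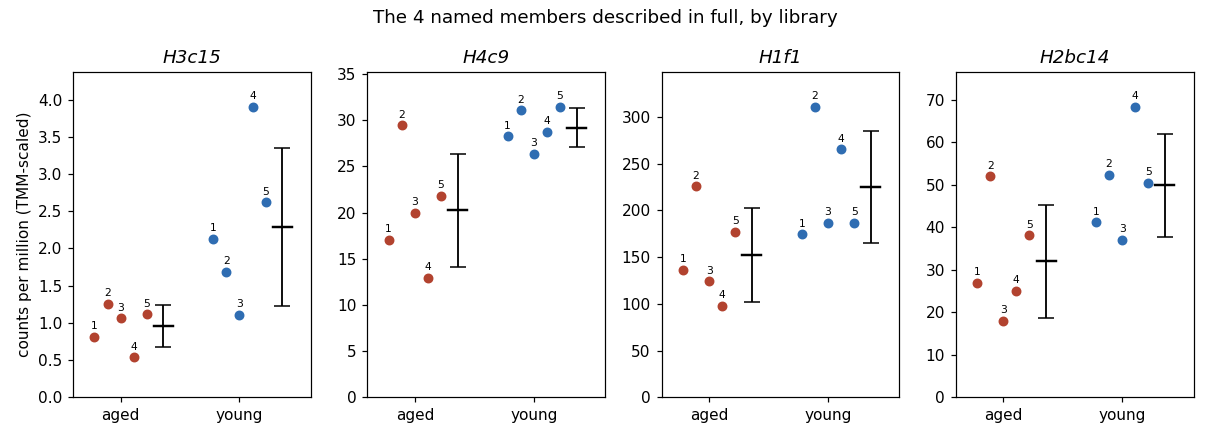
CPM of H3c15, H4c9, H1f1 and H2bc14 in each library, aged on the left and young on the right of each panel, with replicate numbers at the points and mean and SD (n = 5) beside them. H3c15 is the member that passed the test. In H4c9 the aged libraries other than aged 2 lie between 12.96 and 21.8 CPM, below all young libraries.

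Of the H3 and H2A genes with the highest levels, none passed the test. H3c3, H3c11 and H3c6 had log2 fold changes of -0.33, -0.22 and -0.10, and the range of each aged group held most of the young values. H3c6 had 47.3, 143, 35.5, 48.0 and 71.3 CPM in aged 1 to 5, against 65.7, 70.1, 80.5, 80.9 and 73.4 CPM in young 1 to 5. The aged libraries other than aged 2 and aged 5 lay below the young range, aged 2 lay far above it, and the mean difference was small. Among H2A genes, H2ac15 averaged 50.7 ± 24.6 CPM in aged and 58.6 ± 12.5 CPM in young mice (SD, n = 5 each; log2 fold change -0.21, 95% interval -0.76 to 0.34). H2ac4 and H2ac20 had log2 fold changes of -0.27 and -0.23. The 13 tested H2A members ranged from -0.27 to 0.00, and none had an unadjusted p under 0.05.

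Much of the outcome turned on aged 2. Compared with the median of the other aged libraries, aged 2 was higher by a median of 1.22 on the log2 scale over the tested members, against -0.02 over all tested genes, and by class by 0.86 for H1, 1.11 for H2A, 1.25 for H2B, 1.502 for H3 and 1.30 for H4. Without aged 2, 15 of 55 members were lower and 0 higher in the same edgeR test, which is 27.3% against 3.44% of all genes tested in that fit. At an unadjusted p under 0.05, 39 members (70.9%) were lower, against 12.2% of all genes, and the median log2 fold change was -0.65. The 15 were H1f1 and H1f5, the H2B genes H2bc8, H2bc9, H2bc11, H2bc12 and H2bc14, the H3 genes H3c1, H3c4, H3c7 and H3c15, and the H4 genes H4c4, H4c6, H4c8 and H4c9, with no H2A gene among them. The largest differences among them were -1.40 for H3c15 and -1.19 for H2bc9 (edgeR adjusted p = 0.0331 and 0.00430). Leaving out the aged library with the highest histone levels lowers the aged means by construction, so these values describe the other 9 mice and do not replace the comparison over all 10. Leaving out any other single library gave 0 or 1 lower members.

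**Figure D4:**
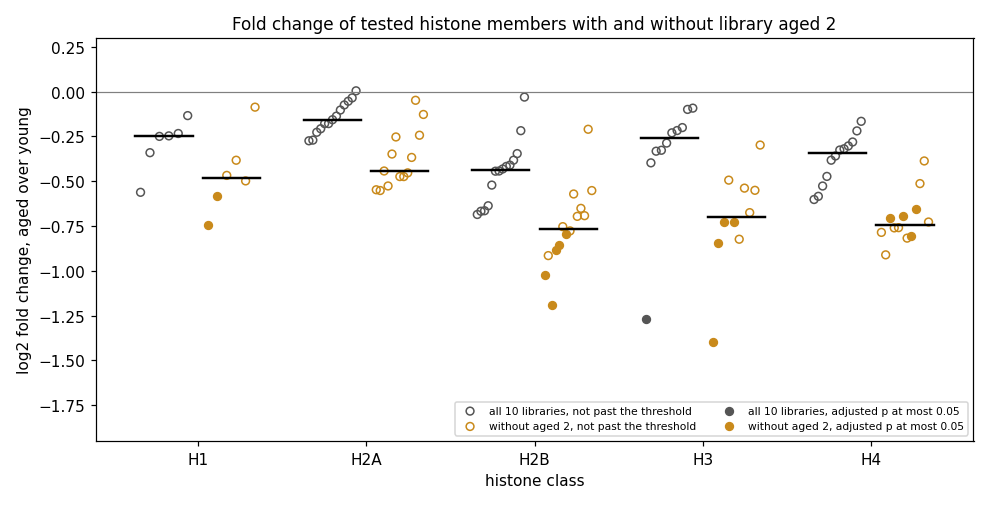
Log2 fold change, aged over young, of each tested member by histone class, with all 10 libraries (grey) and without aged 2 (orange). Filled points passed an adjusted p of 0.05 and black lines are class medians. With all libraries only H3c15 is filled, and without aged 2 the 15 filled points are H1, H2B, H3 and H4 genes.

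The libraries with high histone levels were also those with high levels of red cell precursor markers, such as the globins, Alas2 of heme synthesis and the membrane protein Slc4a1. Their summed level was 4527, 9896, 4199, 3381 and 5253 CPM in aged 1 to 5, against 6258, 9507, 4561, 9661 and 5615 CPM in young 1 to 5. Aged 2, young 2 and young 4 were the highest libraries of both lists. All 11 measured markers of the list had a fold change below 0 and 0 passed edgeR's test, with 3 lower at an unadjusted p under 0.05 (two-sided exact permutation test of the sums, p = 0.246). With the mean log2 level of these markers as a covariate, the median log2 fold change of the members was 0.04, with 19 of 55 below 0 and 0 passing. With the skeletal muscle markers as a covariate it was -0.32 with 0 passing. Of all tested genes, 1.13% were lower with the red cell covariate and 3.03% with the muscle covariate, against 3.61% without a covariate. All 13 tested muscle markers had a fold change above 0 and 0 passed edgeR's test, with 5 higher at an unadjusted p under 0.05. They summed to 65314 ± 25333 CPM in aged and 40565 ± 16517 CPM in young mice (SD, n = 5 each; two-sided exact permutation test, p = 0.119). B cell progenitor markers were lower in aged mice for 8 of 10 genes, and their sum was 252 ± 35.9 CPM in aged and 397 ± 53.1 CPM in young mice (SD, n = 5 each; two-sided exact permutation test, p = 0.00794, the smallest the design allows). Aged 2 was not high for that list, with 230 CPM. Neutrophil precursor markers were at 5026 CPM in aged 2, against 1494 to 3020 CPM in the other aged and 1842 to 2715 CPM in the young libraries. Osteocyte markers summed to 398, 665, 276, 200 and 596 CPM in aged 1 to 5. They summed to 506, 587, 511, 542 and 425 CPM in young 1 to 5 (two-sided exact permutation test, p = 0.389). Aged 2 was thus the highest of all 10 libraries for osteocyte markers too. Cells of growing bone and cartilage also differed. Osteoblast markers were lower for 5 of 10 genes, with a median log2 fold change of -1.20 and sums of 27217 ± 10737 CPM in aged and 64613 ± 19263 CPM in young mice (SD, n = 5 each; two-sided exact permutation test, p = 0.0159). Chondrocyte markers were lower for 5 of 6 tested genes, with a median log2 fold change of -3.00, and Acan, the cartilage proteoglycan, stood at 1.52 to 10.5 CPM in aged and 21.4 to 67.8 CPM in young libraries without overlap. Aged 2 was not high for either list, with an osteoblast sum of 23466 CPM and 4.40 CPM of Acan. The part of these cell types in the histone levels was not tested. The muscle and red cell precursor covariates are marker levels of the same libraries, and their fold changes with age lay on 1 side. The covariate fits therefore do not measure the part of a cell type.

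Other genes of DNA replication and of histone supply were measured in the same fit. Of 42 replication genes, 9 were lower and 0 higher, with 31 lower at an unadjusted p under 0.05 and a median log2 fold change of -0.33. That is 21.4% and 73.8% of the list, against 3.61% and 12.4% of all tested genes. Pole2, a subunit of the leading-strand polymerase, had 6.79, 6.92, 6.83, 6.14 and 7.01 CPM in aged 1 to 5, against 9.11, 12.2, 10.9, 11.4 and 9.69 CPM in young 1 to 5, and the groups did not overlap (log2 fold change -0.66, standard error 0.114, edgeR adjusted p = 0.00442). Rfc4, of the clamp loader, and Orc1, of the origin recognition complex, had log2 fold changes of -0.64 and -0.53, likewise without overlap (edgeR adjusted p = 0.0125 and 0.0177). Summed over the list, replication genes stood at 1600 ± 166 CPM in aged and 2034 ± 222 CPM in young mice (SD, n = 5 each; two-sided exact permutation test, p = 0.0159). Aged 2, with 1875 CPM, lay within the young range of 1798 to 2353 CPM for this list, and was the highest aged library. Of 18 mitosis genes, 1 was lower (5.56%), and 14 at an unadjusted p under 0.05 (77.8%). The called gene was the spindle checkpoint kinase Bub1 (log2 fold change -0.61, edgeR adjusted p = 0.0146), and Mki67, which encodes the Ki-67 protein of cycling cells, did not pass (-0.46 on the log2 scale, edgeR adjusted p = 0.0738). The ratio of summed histone to summed replication gene CPM was 1.75, 2.83, 1.44, 1.38 and 2.09 in aged 1 to 5, against 1.75, 2.09, 1.87, 1.94 and 1.89 in young 1 to 5. The means over all libraries were close, 1.90 ± 0.592 and 1.91 ± 0.124 (SD, n = 5 each), with aged 2 raising the aged mean. The medians were 1.75 in aged and 1.89 in young mice, and the aged libraries other than aged 2 ran from 1.38 to 2.09. Aged 2 lay above the young range and aged 3 and aged 4 below it. By less than the rounding, aged 1 also lay below that range and aged 5 above it. The difference in spread was not tested.

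Of 23 genes that transcribe histone genes or process their mRNA ends, 1 was lower and 0 higher, which is 4.35% of the list and near the 3.61% of all tested genes. At an unadjusted p under 0.05, 6 were lower (26.1%) and 1 higher, against 12.4% and 13.3% of all tested genes. The called gene was Slbp, which encodes the protein that binds the stem-loop. It had 31.7, 35.8, 29.3, 29.8 and 31.5 CPM in aged 1 to 5, against 40.9, 48.0, 40.8, 58.0 and 34.3 CPM in young 1 to 5. Aged 2 overlapped with young 5 only. Its log2 fold change was -0.49, with a standard error of 0.130 and an edgeR adjusted p of 0.0371. Npat, the coactivator of histone gene transcription, did not pass (-0.35 on the log2 scale, edgeR adjusted p = 0.0931). Among 12 histone variant genes outside the clusters, 1 was lower (8.33%), the centromeric H3 variant Cenpa (log2 fold change -0.47, edgeR adjusted p = 0.0199). The replacement histones H3f3b and H2az1 and the linker histone H1f0 had log2 fold changes of 0.02, -0.09 and -0.04, and H3f3a and H2ax had -0.51 and -0.38 (edgeR adjusted p = 0.265 and 0.226). Of 19 genes of histone chaperones and histone acetylation 0 passed edgeR's test, with 4 lower (21.1%) and 0 higher at an unadjusted p under 0.05, against 12.4% and 13.3% of all tested genes. The smallest p-values were those of the H3-H4 chaperone Asf1a (-0.58, edgeR adjusted p = 0.0539) and of Rbbp4 (-0.33, edgeR adjusted p = 0.110).

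Within the young group, young 5 had low H2A mRNAs, while its other histone classes were less low or not low. This pattern was noticed after the values were seen. Relative to the median of the other young libraries, the median H2A member was at -1.43 on the log2 scale in young 5, while H1, H2B, H3 and H4 members were at -0.03, -0.34, 0.01 and -0.30. H2ac8 had 6.13 CPM in young 5, against 21.6 to 32.9 CPM in young 1 to 4, and H2ac6 had 5.35 CPM, against 15.1 to 19.0 CPM. Of 11 H2A members with a mean of at least 5 CPM in young 1 to 4, 8 were at least 2-fold lower in young 5, as were 0 of 5 H1, 0 of 13 H2B and 0 of 9 H3 members, 1 of 11 H4 members and 0.728% of all 11950 genes at that level. The abundant H2ac15, H2ac4 and H2ac20 were at -0.76, -0.69 and -0.55 on the log2 scale, and H2ac21 was at 0.03. H2ac21 is weakly counted, with 30 to 62 reads per library, and 304 of its 444 bases overlap a long noncoding RNA gene. In young 5 the H2A members took 3.76% of the member counts, against 6.26% to 7.58% in the other young and 6.82% to 7.72% in the aged libraries. Young 5 lay below all 4 other young libraries in 12 of 13 tested H2A members. The same held for 5 of 14 H2B, 5 of 12 H4, 2 of 10 H3 and 1 of 6 H1 members. On the log2 scale the lowest H4 members in young 5 were Hist1h4n, H4c12 and H4c3, at -1.04, -0.86 and -0.77. The variant gene H2ax, which lies outside the clusters, was not low in young 5, with 154 CPM, against 110 to 167 CPM in young 1 to 4.

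Genes of an H2A and an H2B that start from the same divergent promoter gave the same pattern as a ratio within each library. The pairs were examined after H2A was seen to be low in young 5, and several of their H2A genes share most of their sequence (10.5% unique windows in H2ac12, 11.6% in H2ac13), so the pairs restate that observation and are not separate tests of it. Of 8 such pairs on chromosome 13, 7 had at least 50 reads for both genes in every library, and in 6 of them the ratio of H2A to H2B counts was lower in young 5 than in all 9 other libraries. For H2ac8 and H2bc8, whose shared promoter is printed above, the ratio was 0.522, 0.405, 0.455, 0.581 and 0.547 in aged 1 to 5, against 0.416, 0.252, 0.366, 0.363 and 0.125 in young 1 to 5. For H2ac11 and H2bc11 it was 0.314 to 0.371 in aged libraries, against 0.244 to 0.339 in young 1 to 4 and 0.0989 in young 5. The exception was H2ac15 with H2bc15, where young 5 (0.525) lay within the range of the other libraries. Without young 5, the median log2 fold change of the H2A members between aged and young mice was -0.33, against -0.16 with all libraries. GC content is highest in H2A transcripts (median 64.4%, against 53.2% to 59.9% in the other classes), and its part in the young 5 levels was not tested.

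**Figure D5:**
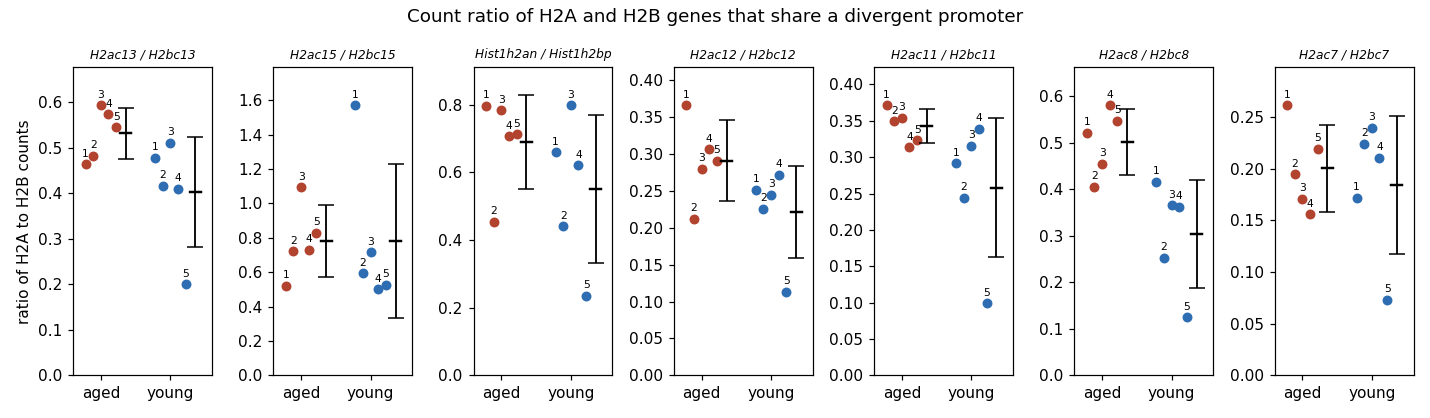
Ratio of H2A to H2B counts in each library for the 7 gene pairs that share a divergent promoter and had at least 50 reads in every library, aged on the left and young on the right, with mean and SD (n = 5) beside the points. Young 5 is the lowest of all 10 libraries in every pair except H2ac15 with H2bc15.

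The members were also grouped by features of their sequence. The 17 members whose annotated transcript runs 100 or more bases past the stem-loop had a median log2 fold change of -0.28, and the 19 tested members with a shorter extension -0.38. The 11 members with at least 90% unique windows had a median of -0.33, and the 22 tested members with under 50% had -0.22. By form of the stem-loop, the medians were -0.27 for the form of H3c15, -0.33 for that of H2bc3, -0.34 for that of H4c6, -0.43 for that of H4c9 and -0.44 for that of H4c2. The 5 members on chromosome 3, all tested, had a median of -0.23, against -0.30 for the 50 tested members on chromosome 13. These medians describe groups of 2 to 50 genes that share libraries, and no difference between them was tested.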

How the data were processed

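The deposited table holds raw counts of reads per gene for 10 femur libraries, which the authors, per their methods, made by trimming with Cutadapt, aligning with STAR to GRCm38.p6 and counting with featureCounts. The labels name a human build, while the identifiers are mouse. The annotation release, the use of strand and the treatment of reads that map to several genes are, in the sources used here, not given. The gene length in the deposited table was used for CPM per kb.

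The fits ran in edgeR 4.0.16 under R 4.3.3. Its own filter (minimum count 10, minimum total 15) chose the genes, libraries were scaled by TMM, and aged were compared with young libraries by a robust quasi-likelihood fit without covariates, with Benjamini-Hochberg adjustment over all 22088 tested genes. Calls used an adjusted p threshold of 0.05. Standard errors were taken as the absolute log2 fold change over the square root of F, and 95% intervals are 1.96 standard errors wide on each side. Sums over a list were compared between groups with a two-sided exact permutation test on 126 splits, which can reach 0.00794 at the lowest. The alternatives tried were other scalings and filters, DESeq2 1.42.0, limma-voom (limma 3.58.1), marker covariates, a block for the replicate number, and fits without each library in turn. The fits were tested on simulated counts. Transcript sequences came from GENCODE vM21 and promoters from RefSeq. Figures were made with matplotlib 3.10.9.

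The members and the gene lists were chosen with earlier results of these data known. Named members are those that passed, the 10 with the smallest p and the 3 with the highest CPM per kb of each class, and no member was at 0 in every library. From each other list the text names up to 3 called genes with the smallest p or, where none passed, the 2 smallest, with Slbp, Npat, Mki67 and the variants H2ax, H2az1, H3f3a, H3f3b and H1f0 always named. H3c15, H4c9, H2bc14, H2bc3, H1f1 and H3c6 were chosen from them for full values after these were seen, as were the young 5 comparison and the divergent pairs. Nothing says more of the replicates than that each library is 1 mouse.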

Additional observations from a re-analysis of the deposited data

Results flagged for a closer look

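In 70 groups of 5 libraries (23 named members, the class sums, the sum over all members, the class shares and the ratio of H2A to H2B, in each age group), 5 held a library far from the other 4, and chance gives about 1 in 20, or 3.5 of 70. In 4 of the 5 the library was aged 2. H2bc9 stood at 72.4 CPM there, against a next highest aged value of 29.6 CPM. H4c6 stood at 306.0 CPM against 161 CPM, H4c8 at 180.6 CPM against 76.8 CPM, and the sum of the H4 members at 1456 CPM against 773 CPM. The remaining 1 was H4c12 in young 5, at 39.8 CPM, against 67.9 CPM in the next lowest young library.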

How the results depend on the processing

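The count of 1 lower member held under 3 other scalings, 2 other filters, DESeq2, limma-voom and a 1.5-fold threshold, and the count of 0 higher members under every alternative. The muscle and the red cell precursor covariates each gave 0 lower members, against 3.03% and 1.13% of all genes in those fits. Leaving out single libraries gave 0 to 15 lower members, and leaving out aged 2 and young 5 together, chosen after the data were seen, gave 15, of which 11 were among the 15 without aged 2 alone. Of all genes, 3.68% were lower in the fit without both and 3.44% without aged 2 alone. No source says that the numbers 1 to 5 pair the mice. Correlations of same-numbered deviations were -0.154, 0.0362, 0.168, 0.157 and -0.0835. Those of differently numbered libraries ranged from -0.366 to 0.277, so these values cannot settle whether the numbers carry a pairing. When replicate number entered as a block, 2 members were lower (H2bc14 and H4c9; 3.64%, against 3.06% of all genes in that fit) and 21 at an unadjusted p under 0.05 (38.2%, against 11.2%), and H3c15 had a log2 fold change of -1.20 (adjusted p = 0.0630). H3c15 also lost its call with the muscle covariate (log2 fold change -1.07, adjusted p = 0.125), with the red cell covariate (-0.76, 0.302) and without aged 2 and young 5 together (-1.36, 0.0544).

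Over all genes, 285 were higher with scaling by total counts only, which moved the median of all genes to -0.16 and that of the members to -0.42. DESeq2 gave 1546 higher and 1250 lower genes, the red cell covariate 187 and 250, and leaving out a library 300 to 856 higher and 386 to 830 lower. Lower replication genes numbered 5 with total counts, 17 with DESeq2, 3 with the muscle and 1 with the red cell covariate, 21 without aged 2 and young 5, and 2 to 18 without single libraries. Lower mitosis genes numbered 4 without the filter, 5 with DESeq2, 3 with the block, 0 with either covariate, 8 without aged 2 and young 5, and 1 to 7 without single libraries.

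With the red cell covariate the log2 fold change turned positive, though not past the threshold, for H1f2 (0.0929), H2ac15 (0.0853), H2ac4 (0.10), H2ac20 (0.10), H2bc15 (0.12), H2bc13 (0.0437), H3c3 (0.12), H3c11 (0.16), H3c6 (0.17), H4c6 (0.0495), H4c8 (0.0669) and H4c12 (0.15), and with the muscle covariate for H3c3 (0.0753). When single libraries were left out, H3c6 ranged from -0.551 (without aged 2) to 0.0659 (without aged 3) and was also above 0 without aged 1 or aged 4, and H4c12 ranged from -0.728 (without aged 2) to 0.0147 (without aged 3). The cause was not tested. The median member moved from -0.18 to -0.65 as single libraries were left out. With 5 mice per group and a median standard error of 0.298, the 95% intervals of most members include both 0 and the size of the median change.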
